A study of Mus musculus with 9 samples.

Results

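The interleukin-6 (IL6) cytokine family in the mouse uterus was described through 10 genes, chosen by symbol from the 31274 entries of a table of transcript levels. They are the ligands *Lif*, *Il6*, *Il11* and *Osm*, the receptor chains *Lifr*, *Il6st*, *Il11ra1* and *Osmr*, the transcription factor gene *Stat3* and its feedback gene *Socs3*. All 10 were listed. RNA came from the whole uterus of C57BL/6 mice on pseudopregnancy day (PPD) 4.5, after mating of young virgin females to vasectomized males, so that no embryo was present. The 4 control mice (Wnk1f/f) carried *Wnk1* alleles with loxP sites around exon 2 and no Cre, and the 5 mutant mice (Wnk1d/d) carried the same alleles with 1 copy of a Cre inserted at the progesterone receptor gene. This Cre acts in the epithelium, stroma and smooth muscle of the uterus and also in the ovary and pituitary, whereas immune and endothelial cells lack the receptor and keep *Wnk1*. Each mouse gave 1 library.

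Members of this family signal through gp130, the shared chain encoded by *Il6st*. Leukaemia inhibitory factor (LIF) brings gp130 together with LIFR as the second chain, and oncostatin M brings it together with OSMR. IL6 and IL11 reach gp130 through IL6RA or IL11RA, which are ligand-binding chains without a kinase partner. Janus kinases bound to the chains then phosphorylate STAT3, which enters the nucleus and induces, among other genes, *Socs3*, whose product binds gp130 and stops the signal. In the mouse uterus, LIF is known as the cytokine that glands release after the estrogen rise before implantation and that acts on the luminal epithelium, and IL11 is known for its part in the decidual change of the stroma. The comparison addressed whether transcripts of this pathway differed between Wnk1f/f and Wnk1d/d uteri at the time when the uterus becomes receptive.

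Promoters are shown for *Lif*, the member that differed between the genotypes, and for *Socs3*, the member whose promoter holds a STAT motif. Both run 5′ to 3′ on the gene's own strand, from 250 bases before to 50 bases after the RefSeq start (build GRCm38.p6, which has the coordinates of mm10). The *Lif* promoter lies at chr11:4257318-4257617 on the plus strand and the *Socs3* promoter at chr11:117969317-117969616 on the minus strand. Capitals mark the STAT motif TTCNNNGAA, searched on both strands, where N is any base.
Lif: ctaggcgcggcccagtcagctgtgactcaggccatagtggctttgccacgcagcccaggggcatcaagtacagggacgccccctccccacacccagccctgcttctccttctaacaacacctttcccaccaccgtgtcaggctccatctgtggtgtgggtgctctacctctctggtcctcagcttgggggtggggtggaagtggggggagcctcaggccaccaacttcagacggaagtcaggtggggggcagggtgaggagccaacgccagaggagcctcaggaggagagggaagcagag
Socs3: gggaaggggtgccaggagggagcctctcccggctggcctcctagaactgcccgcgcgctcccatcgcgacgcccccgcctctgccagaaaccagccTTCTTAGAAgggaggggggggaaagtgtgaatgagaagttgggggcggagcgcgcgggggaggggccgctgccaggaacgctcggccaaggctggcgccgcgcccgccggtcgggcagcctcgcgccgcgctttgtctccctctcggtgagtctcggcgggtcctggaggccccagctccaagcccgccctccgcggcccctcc
The match in *Socs3*, TTCTTAGAA, begins at position -154 counted from the start. RefSeq promoters were matched for 9 of the 10 members, with 12 promoters in all, and the motif was found in 1 of the 12. Among all 32851 mouse promoters of this length, 8.30% held it. These are matches of letters only, and binding was not measured.

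Levels were given by the authors as FPKM, fragments per kilobase of transcript scaled to the fragments in the library, which can be set side by side between genes because it is per length. The genotypes were compared with limma on log2(FPKM + 1), and fold changes on that scale come out smaller than the ratio of FPKM for genes near 1 FPKM or below. The test covered the 14728 genes with a mean above 1 FPKM in at least 1 genotype. A gene was called differentially expressed (a DEG) where the mean FPKM differed by 1.5 times or more, in either direction, with an adjusted p below 0.05. By this rule 5.09% of the genes tested were higher and 5.18% were lower in Wnk1d/d uteri. By the adjusted p alone, 11.1% were higher and 11.0% lower, and in 9.27% every Wnk1d/d value was above every Wnk1f/f value. The targeted gene, *Wnk1*, was between 43.4 and 47.3 FPKM in the Wnk1f/f libraries and between 29.8 and 33.9 FPKM in the Wnk1d/d libraries, in accord with the labels of all 9. In Wnk1d/d replicate 4 a single entry held 70.3% of the summed FPKM. The number of fragments per library is unknown. Low values of 8 entries put the worth of 1 fragment within 1.36 times across the libraries. These entries were kept only where their non-zero values were close together, so the range cannot show that depth was equal.

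Markers of some cell types of the tissue differed between genotypes, while markers of others did not pass the test. All 6 smooth muscle markers were higher in Wnk1d/d uteri, with a summed level of 2797 to 6372 FPKM in Wnk1f/f and 7209.7 to 13655 FPKM in Wnk1d/d libraries. All 6 endothelial markers were lower (331 to 367 against 131 to 266 FPKM), and 5 of 6 stromal markers were lower by the adjusted p, 2 of them as DEGs (1428 to 1624 against 862 to 1260.4 FPKM). Of 5 gland markers, the secretory genes *Spink3*, *Prss28* and *Prss29* were lower, which took the sum from 6586 to 10393 FPKM down to 815 to 2716 FPKM, while *Foxa2* and *Cxcl15* did not pass the test. Of 6 epithelial markers, *Cldn7* alone was a DEG, higher in Wnk1d/d uteri with adjusted p = 0.0404, and the sum was 701 to 1058 against 745 to 1200.5 FPKM. *Cldn7* lost the call without Wnk1f/f replicate 1 or 4 or Wnk1d/d replicate 1, 3 or 4 (adjusted p up to 0.104). No leukocyte marker of 6 tested passed (183 to 340 against 201 to 241 FPKM), nor did 1 neutrophil marker tested (sum 1.1 to 4.06 against 1.6 to 5.63 FPKM), 7 liver markers or 1 fat marker tested (sum 0.760 to 1.83 against 0.740 to 2.70 FPKM). The liver sum was 162 FPKM in Wnk1f/f replicate 4 and between 4.03 and 26.9 FPKM in the other libraries. *Apoa1* and *Fgb* of the liver list and *Adipoq*, *Plin1* and *Cidec* of the fat list were at 0 in some libraries. In RNA of a whole tissue, fewer cells of a type and less RNA per cell cannot be told apart.

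*Lif* was higher in Wnk1d/d uteri, and it was the 1 DEG among the 7 members that passed the filter, all of which passed it in both genotypes. No member was a DEG in the other direction. Of all genes tested, 5.09% were DEGs higher and 5.18% DEGs lower, and 1 among 7 is too small a count to set against these shares. *Lif* was at 1.70, 3.17, 3.38 and 2.45 FPKM in the 4 Wnk1f/f libraries and at 8.5, 5.6, 7.94, 7.92 and 8.86 FPKM in the 5 Wnk1d/d libraries. Every mutant uterus was above every control uterus, as in 9.27% of all genes tested, and Wnk1d/d replicate 2 was the lowest of the mutants. The means were 2.68 ± 0.762 FPKM (SD, n = 4) and 7.76 ± 1.27 FPKM (SD, n = 5), a ratio of 2.90. The log2 fold change was 1.27 (standard error 0.16, 95% interval 0.90 to 1.63, limma adjusted p = 0.00269), and the exact two-sided permutation test gave p = 0.00794, the smallest that 4 against 5 libraries allow. Leaving out each library in turn kept *Lif* a DEG in all 9 fits, with log2 fold changes of 1.13 to 1.36. The gene lies at chr11:4257557-4272514 on the plus strand of mm10.

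**Figure D1:**
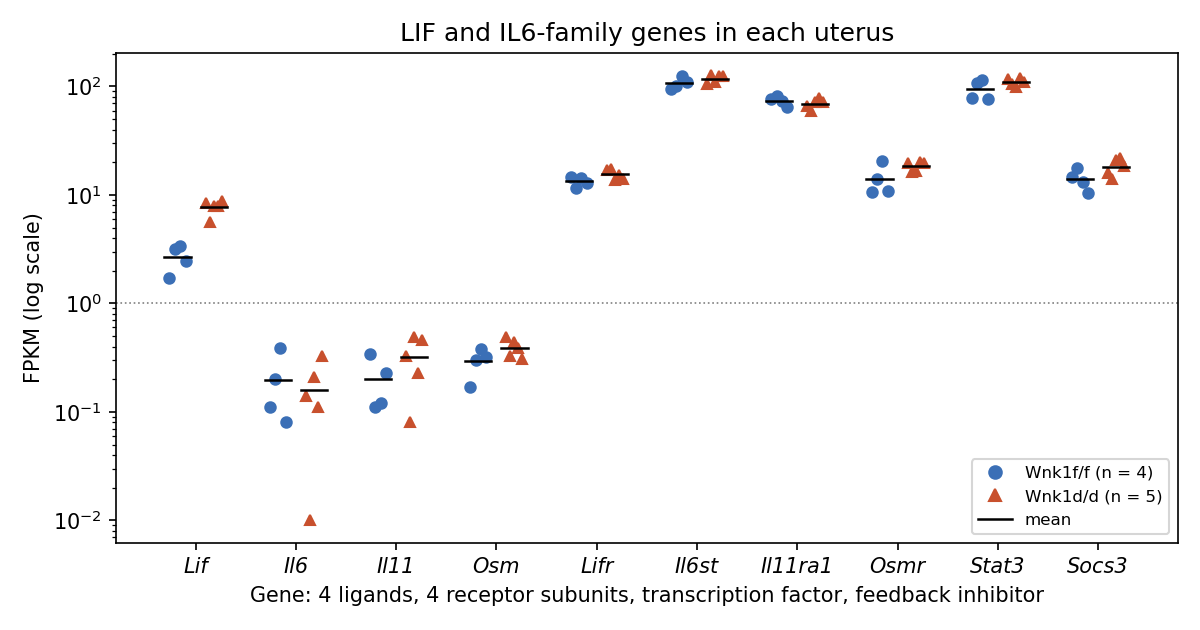
FPKM on a log axis of the 10 members in the 9 libraries, with 1 point per library, a bar at the mean of each genotype, and a dotted line at 1 FPKM, the level of the filter. The 5 Wnk1d/d points of *Lif* lie between 5.6 and 8.86 FPKM, above the 4 Wnk1f/f points at 1.70 to 3.38 FPKM, while the points of the other members overlap between genotypes.

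Because glands are the known source of LIF, *Lif* was also divided, within each library, by each of the 11 epithelial and gland markers. Every Wnk1d/d library was above every Wnk1f/f library in 9 of the 11 ratios, and the groups overlapped in 2. *Lif* itself did not overlap between genotypes, and division by a marker that differs little or is lower keeps that separation. The count therefore largely repeats the difference in *Lif* and is no separate evidence. *Foxa2*, a transcription factor of the gland cells, was at 5.83 ± 1.36 FPKM (SD, n = 4) in Wnk1f/f and 6.78 ± 1.13 FPKM (SD, n = 5) in Wnk1d/d uteri (adjusted p = 0.364). The ratio of *Lif* to *Foxa2* was 0.408 to 0.528 in Wnk1f/f and 0.765 to 1.5 in Wnk1d/d libraries, and the ratio of the means was 2.59. *Cxcl15*, a chemokine gene of the glands, gave the smallest difference. *Cxcl15* was at 1.46 ± 0.895 FPKM (SD, n = 4) in Wnk1f/f and 2.64 ± 0.832 FPKM (SD, n = 5) in Wnk1d/d uteri (adjusted p = 0.123). The ratio of *Lif* to *Cxcl15* was 1.68, 1.36, 1.63 and 5.70 in Wnk1f/f and 3.74, 3.57, 2.73, 3.01 and 2.31 in Wnk1d/d libraries, 1.19 times higher by the means (exact permutation p = 0.294). The highest of these was the control replicate 4, with *Cxcl15* at 0.43 FPKM, and the other 3 controls were below all mutants. The ratio to the keratin gene *Krt19* also overlapped, at 0.0282 to 0.0566 against 0.0433 to 0.194 (2.66 times higher by the means, exact permutation p = 0.0635).

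Relative to the other epithelial markers *Lif* was 2.51 (*Epcam*), 2.66 (*Krt8*), 3.14 (*Krt18*), 2.76 (*Cdh1*) and 1.94 (*Cldn7*) times higher by the means. Relative to the gland genes *Spink3*, *Prss28* and *Prss29*, which themselves were lower in Wnk1d/d uteri, it was 18.8, 21.3 and 9.40 times higher. Division by these markers was chosen after the values of *Lif* were seen. The part of the change in smooth muscle, stromal, endothelial and gland markers in the level of *Lif* was not tested.

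**Figure D2:**
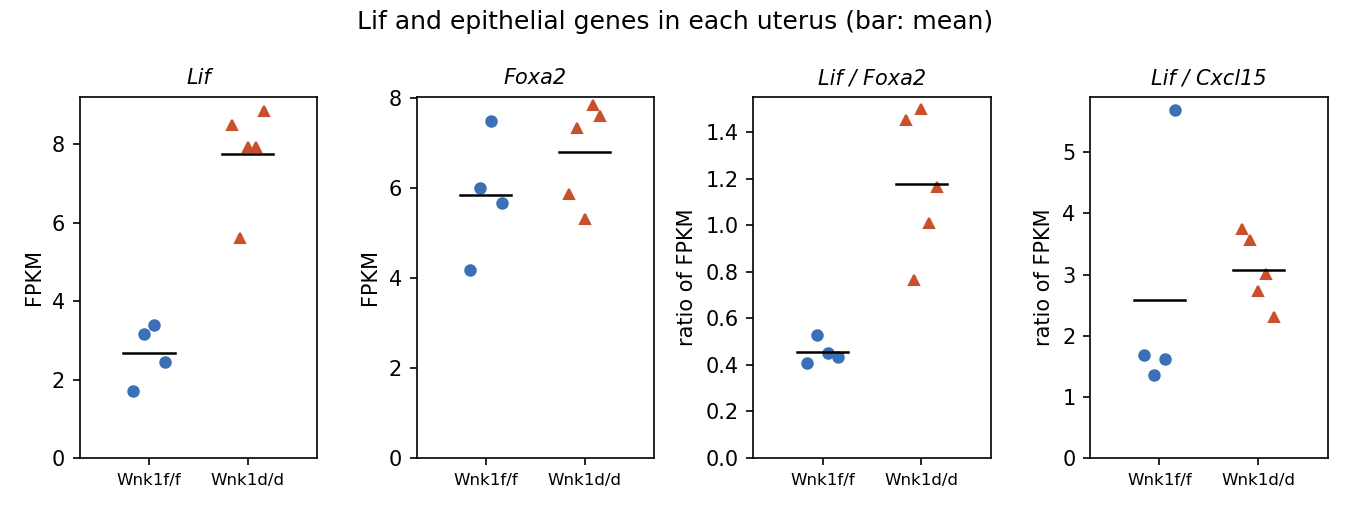
*Lif* and *Foxa2* in FPKM, and the ratio of *Lif* to *Foxa2* and to *Cxcl15* in the same library, with 1 point for each of the 4 Wnk1f/f (circles) and 5 Wnk1d/d (triangles) libraries and a bar at the mean. *Foxa2* overlaps between genotypes. The Wnk1d/d points lie above the Wnk1f/f points in *Lif* itself and in its ratio to *Foxa2* (0.765 to 1.5 against 0.408 to 0.528), while in the ratio to *Cxcl15* 1 control, at 5.70, lies above all mutants.

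The other 3 ligands were below 1 FPKM in every library and did not pass the filter, so they were tested in the fit without a filter. *Il6*, the cytokine of the acute inflammatory response, was at 0.11, 0.20, 0.39 and 0.08 FPKM in Wnk1f/f and 0.14, 0.01, 0.21, 0.11 and 0.33 FPKM in Wnk1d/d uteri. *Il11* was at 0.34, 0.11, 0.12 and 0.23 FPKM in Wnk1f/f and 0.33, 0.08, 0.49, 0.23 and 0.46 FPKM in Wnk1d/d uteri. *Osm*, which encodes oncostatin M and lies near *Lif* on chromosome 11, was at 0.17, 0.30, 0.38 and 0.32 FPKM in Wnk1f/f and 0.49, 0.33, 0.44, 0.39 and 0.31 FPKM in Wnk1d/d uteri. The groups overlapped in all 3. The 95% interval of the log2 fold change was -0.25 to 0.17 for *Il6*, -0.10 to 0.36 for *Il11* and -0.02 to 0.23 for *Osm*, with limma adjusted p = 0.799, 0.427 and 0.231. A difference was not detected in any of the 3 at these levels.

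The 4 receptor chains overlapped between genotypes, and none passed the test. *Lifr*, the LIF-binding chain, was at 14.62, 11.67, 14.38 and 12.87 FPKM in Wnk1f/f and 17.08, 17.34, 13.83, 15.40 and 13.89 FPKM in Wnk1d/d uteri. Thus 3 of the mutants were above all controls, and the log2 fold change of 0.20 had a 95% interval from -0.01 to 0.41 (adjusted p = 0.154). *Il6st*, the shared gp130 chain, was at 93.96, 100.08, 125.85 and 108.78 FPKM in Wnk1f/f and 106.01, 126.82, 110.00, 123.58 and 124.03 FPKM in Wnk1d/d uteri. Its ratio of means was 1.102 and the 95% interval of its log2 fold change was -0.07 to 0.36 (adjusted p = 0.297). The balance of the 2 chains of the LIF receptor, *Il6st* over *Lifr*, was 8.05 ± 1.09 (SD, n = 4) in Wnk1f/f and 7.69 ± 1.01 (SD, n = 5) in Wnk1d/d uteri (exact permutation p = 0.611). *Lifr* over its ligand *Lif* was 3.68 to 8.60 in Wnk1f/f and 1.57 to 3.10 in Wnk1d/d libraries, a ratio that holds the difference in *Lif*.

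*Osmr*, the oncostatin M chain, was at 10.55, 13.92, 20.63 and 10.87 FPKM in Wnk1f/f and 19.87, 16.43, 16.60, 20.32 and 19.65 FPKM in Wnk1d/d uteri. All 5 mutants were above 3 of the controls and below the fourth, Wnk1f/f replicate 3. With all libraries the log2 fold change was 0.43 (95% interval 0.04 to 0.82, adjusted p = 0.104). Without Wnk1f/f replicate 3 it was 0.62, with a ratio of 1.58 and adjusted p = 0.0137, and *Osmr* then met the DEG rule. *Il11ra1*, the IL11-binding chain, was at 75.85, 80.80, 73.58 and 64.90 FPKM in Wnk1f/f and 65.88, 59.78, 71.77, 77.85 and 71.23 FPKM in Wnk1d/d uteri (95% interval of the log2 fold change -0.29 to 0.11, adjusted p = 0.488). Its value is uncertain, because it has a near-identical copy, *Il11ra2* (9.59 against 8.45 FPKM, adjusted p = 0.107), and because its exons overlap those of *Ccl27a* on the other strand, from which reads cannot be told apart without strand.

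*Stat3* and *Socs3* did not pass the test either. *Stat3* was at 77.73, 107.37, 115.15 and 76.37 FPKM in Wnk1f/f and 118.37, 104.65, 99.76, 119.61 and 109.82 FPKM in Wnk1d/d uteri. The 4 controls fell into a pair near 77 FPKM and a pair above 107 FPKM, and the mutants lay in or just above the range of the upper pair or between the pairs. The ratio of means was 1.17, and the log2 fold change was 0.25 (95% interval -0.05 to 0.55, adjusted p = 0.196). The exons of *Stat3* overlap those of *Stat5a* on the other strand, which leaves both values uncertain. *Socs3*, the feedback gene, was at 14.75, 17.73, 13.16 and 10.52 FPKM in Wnk1f/f and 16.08, 13.93, 20.91, 22.01 and 18.30 FPKM in Wnk1d/d uteri. In 3 mutants it was above all controls, and the log2 fold change was 0.36 (95% interval -0.01 to 0.73, adjusted p = 0.135). *Socs3* over *Stat3* within a library was 0.152 ± 0.0328 (SD, n = 4) in Wnk1f/f and 0.166 ± 0.0325 (SD, n = 5) in Wnk1d/d uteri (exact permutation p = 0.532). Phosphorylated STAT3 protein is not measured by RNA sequencing.

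**Figure D3:**
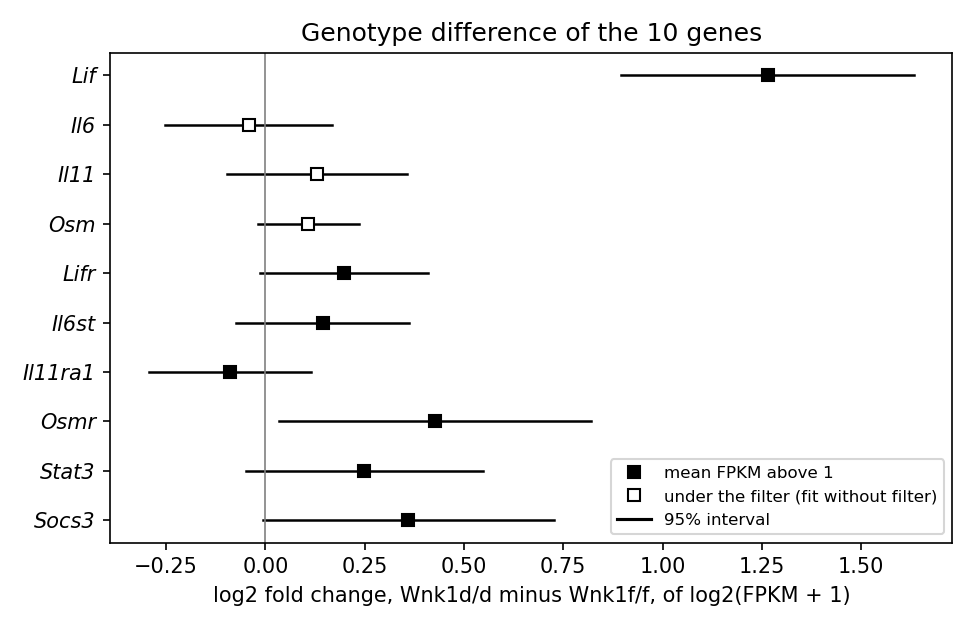
Log2 fold change of log2(FPKM + 1), Wnk1d/d minus Wnk1f/f, of each member with its 95% interval (4 against 5 libraries), from the fit without a filter for *Il6*, *Il11* and *Osm*. *Lif* lies at 1.27 with an interval of 0.90 to 1.63, *Osmr* at 0.43 with 0.04 to 0.82, and the intervals of the other 8 members include 0.

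The median log2 fold change of the 7 members tested was 0.25, beside 0.003 over all genes tested. The order of the 10 levels was the same in both genotypes but for *Socs3* and *Osmr*, which changed places. In Wnk1f/f uteri *Il6st* (107 FPKM), *Stat3* (94.2 FPKM) and *Il11ra1* (73.8 FPKM) led, followed by *Socs3*, *Osmr* and *Lifr* (14.0, 14.0 and 13.4 FPKM), and the ligands were lowest, with *Lif* at 2.68 FPKM and *Osm*, *Il11* and *Il6* at 0.293, 0.200 and 0.195 FPKM. In Wnk1d/d uteri the order was *Il6st* (118 FPKM), *Stat3* (110.4 FPKM), *Il11ra1* (69.3 FPKM), *Osmr* (18.6 FPKM), *Socs3* (18.2 FPKM), *Lifr* (15.5 FPKM), *Lif* (7.76 FPKM), *Osm* (0.392 FPKM), *Il11* (0.318 FPKM) and *Il6* (0.160 FPKM). *Lif* stood between the receptor chains and the other ligands in both. *Socs3*, *Osmr* and *Lifr* were not separated from one another. *Socs3* was above *Osmr*, and *Osmr* above *Lifr*, in 2 of 4 Wnk1f/f libraries each, and in Wnk1d/d uteri *Osmr* was above *Socs3*, and *Socs3* above *Lifr*, in 3 of 5 each. *Lifr* was above *Lif* in all 9 libraries. *Il6st* was above *Stat3* in 3 of 4 Wnk1f/f and 4 of 5 Wnk1d/d libraries.

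Beyond the members, 67 symbols of pathway genes were looked up in 7 lists. Of these, 66 were listed, the exception being *Acod1*, the newer name of the listed *Irg1*, and 59 passed the filter. Of these 59, 6 (10.2%) were DEGs higher and 4 (6.78%) DEGs lower in Wnk1d/d uteri, beside 5.09% and 5.18% of all genes tested. By the adjusted p alone 10 were higher and 7 lower, beside 11.1% and 11.0% of all genes tested. The median log2 fold change of the 59 was 0.05. The lists were chosen with earlier results of these data known, and a gene was taken out of them after the analysis. These shares therefore cannot show that the pathway changed more than other genes.

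Among the other ligands, *Clcf1* encodes a cytokine that acts on a receptor of CNTFR, LIFR and gp130. *Clcf1* was at 52.5 ± 8.36 FPKM (SD, n = 4) in Wnk1f/f and 38.2 ± 7.99 FPKM (SD, n = 5) in Wnk1d/d uteri, with a log2 fold change of -0.46 (adjusted p = 0.059). It passed the adjusted p without Wnk1f/f replicate 3 (0.0463) or without Wnk1d/d replicate 2 (0.0123), though not the fold criterion in the former case nor, at a ratio of 0.667, in the latter. *Cntfr*, the chain that binds this cytokine, was at 0.203 and 0.294 FPKM on average and did not pass the filter (adjusted p = 0.0941 in the fit without it).

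Of 3 other receptor chains tested, *Il27ra*, the IL27-binding chain found mainly on lymphocytes, was a DEG, lower in Wnk1d/d uteri, as were 5.18% of all genes tested. *Il27ra* was at 3.44, 3.29, 3.73 and 5.80 FPKM in Wnk1f/f and 1.88, 2.39, 2.19, 1.95 and 2.54 FPKM in Wnk1d/d uteri (log2 fold change -0.65, standard error 0.14, adjusted p = 0.0145). *Il6ra*, the IL6-binding chain, was at 4.97 ± 0.815 FPKM (SD, n = 4) and 5.36 ± 0.615 FPKM (SD, n = 5), with adjusted p = 0.552.

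Among 9 kinases and adaptors, 3 were higher and 2 lower by the adjusted p, beside 11.1% and 11.0% of all genes tested. Of the 9, 1 was a DEG, lower in Wnk1d/d uteri, as were 5.18% of all genes tested. That DEG was *Gab1*, a docking adaptor that links gp130 and growth factor receptors to the PI3K and ERK pathways. *Gab1* was at 19.07, 19.75, 20.78 and 17.33 FPKM in Wnk1f/f and 10.90, 10.60, 8.23, 11.29 and 9.95 FPKM in Wnk1d/d uteri, with a log2 fold change of -0.86 (standard error 0.09, adjusted p = 0.00165). *Jak2*, a kinase bound to gp130, was at 40.16, 46.02, 42.31 and 44.24 FPKM in Wnk1f/f and 73.16, 72.44, 56.49, 52.92 and 56.10 FPKM in Wnk1d/d uteri. All 5 mutants were above the controls, as in 9.27% of all genes tested (log2 fold change 0.51, adjusted p = 0.0138). The ratio of 1.44 was below the fold criterion. *Jak1*, the kinase on which gp130 signalling mainly depends, was at 67.5 ± 5.19 FPKM (SD, n = 4) and 65.0 ± 5.43 FPKM (SD, n = 5), with a 95% interval of the log2 fold change from -0.23 to 0.12 (adjusted p = 0.644).

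The other 3 calls among the kinases and adaptors were small and depended on single libraries. *Ptpn11*, which encodes the phosphatase SHP2 that carries the gp130 signal to ERK, had a ratio of 1.23 (adjusted p = 0.0216), which did not pass without Wnk1f/f replicate 2 or 4 or Wnk1d/d replicate 3 or 5 (0.052 to 0.0568). *Tyk2*, the third kinase of the family at gp130, had a ratio of 0.805 (adjusted p = 0.0483), which did not pass in 7 of 9 fits with 1 library left out (up to 0.128). *Grb2*, an adaptor that binds SHP2, had a ratio of 1.16 (adjusted p = 0.038), which did not pass in 7 of those fits either (up to 0.104).

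Of 6 other STAT genes, *Stat5a*, whose product mainly serves prolactin and growth hormone, was a DEG, higher in Wnk1d/d uteri, as were 5.09% of all genes tested. It was at 13.61, 14.06, 12.62 and 17.47 FPKM in Wnk1f/f and 23.61, 26.03, 28.60, 16.75 and 22.28 FPKM in Wnk1d/d uteri, where 1 mutant, replicate 4, lay within the control range (log2 fold change 0.65, standard error 0.15, adjusted p = 0.0158). Among 12 inhibitors, *Socs2*, a feedback gene of the growth hormone receptor, was the 1 DEG, higher as were 5.09% of all genes tested. *Socs2* was at 20.89, 23.70, 24.49 and 16.90 FPKM in Wnk1f/f and 33.49, 31.01, 43.77, 41.01 and 40.19 FPKM in Wnk1d/d uteri (log2 fold change 0.79, standard error 0.13, adjusted p = 0.00604). *Socs1*, the inhibitor that acts on the kinases themselves, was at 15.3 ± 4.30 FPKM (SD, n = 4) and 16.1 ± 2.86 FPKM (SD, n = 5), with adjusted p = 0.734. The phosphatase gene *Ptpn1* was higher (ratio 1.21, adjusted p = 0.0274) and *Pias1*, an inhibitor of STAT binding to DNA, was lower (ratio 0.812, adjusted p = 0.0217). The former did not pass without Wnk1f/f replicate 3 or 4 or Wnk1d/d replicate 3, 4 or 5 (up to 0.0781), nor the latter without Wnk1f/f replicate 1 or 4 or Wnk1d/d replicate 3 (up to 0.0612).

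Of 20 genes known as targets of STAT3 in other settings, 4 were DEGs higher and 1 was a DEG lower in Wnk1d/d uteri. The other 15 were not DEGs. Over all genes tested, 5.09% were DEGs higher and 5.18% DEGs lower. The list was chosen with earlier results of these data known, so the count cannot show that these targets changed more than other genes. *Il4ra*, the IL4 receptor chain, was at 19.45, 16.80, 21.19 and 20.12 FPKM in Wnk1f/f and 45.95, 35.43, 48.58, 39.20 and 51.84 FPKM in Wnk1d/d uteri (log2 fold change 1.14, standard error 0.12, adjusted p = 0.00144). *Ier3*, an early response gene of cell survival, was at 132.37, 150.29, 140.39 and 152.74 FPKM in Wnk1f/f and 281.62, 244.29, 270.42, 289.76 and 237.14 FPKM in Wnk1d/d uteri (log2 fold change 0.87, standard error 0.08, adjusted p = 0.00143). Both were clear of overlap, as were 9.27% of all genes tested in this direction, and were DEGs in all 9 fits with 1 library left out.

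*Bcl3*, a partner of NF-kappaB, was at 13.4 ± 4.88 FPKM (SD, n = 4) in Wnk1f/f and 25.7 ± 4.01 FPKM (SD, n = 5) in Wnk1d/d uteri (adjusted p = 0.0178, and 0.0507 without Wnk1f/f replicate 4). *Cebpb*, a transcription factor that the decidual change requires, was at 28.1 ± 7.85 FPKM (SD, n = 4) and 47.3 ± 10.1 FPKM (SD, n = 5), with adjusted p = 0.0302. Its call was the least stable of these 10 DEGs of the pathway lists, since it was lost in 6 of 9 fits, those without Wnk1f/f replicate 1, 3 or 4 or Wnk1d/d replicate 3, 4 or 5 (adjusted p up to 0.0776). *Serpina3n*, a secreted protease inhibitor of the acute phase, was lower in Wnk1d/d uteri (log2 fold change -0.76, standard error 0.15, adjusted p = 0.00965). It was at 98.87, 92.02, 98.28 and 79.45 FPKM in Wnk1f/f and 38.67, 54.00, 60.43, 53.57 and 67.76 FPKM in Wnk1d/d uteri. *Myc* was also lower by the adjusted p (0.0155), with a ratio of 0.683 that did not meet the fold criterion. It met the DEG rule in 4 of 16 alternatives, 3 of them with 1 library left out.

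Of 5 tested uterine genes known to depend on LIF, *Igfbp3*, a binding protein of insulin-like growth factors, was the 1 DEG. It was lower, as were 5.18% of all genes tested by the DEG rule. The direction in which each of these genes responds to LIF was not part of the comparison, so whether they followed *Lif* was not tested. *Igfbp3* was at 1458.73, 506.62, 506.06 and 663.80 FPKM in Wnk1f/f and 72.11, 148.49, 89.86, 159.57 and 99.16 FPKM in Wnk1d/d uteri, with a log2 fold change of -2.69 (standard error 0.35, adjusted p = 0.00269). Wnk1f/f replicate 1 stood far above the other controls, and without it the gene was still a DEG. *Irg1*, which encodes the enzyme that makes itaconate, was at 14.55, 62.09, 79.18 and 7.74 FPKM in Wnk1f/f and 132.94, 48.98, 143.70, 166.24 and 76.19 FPKM in Wnk1d/d uteri. The spread among controls was large and the test was not passed (log2 fold change 1.86, adjusted p = 0.071), except without Wnk1f/f replicate 3 (2.35, 0.0363) or Wnk1d/d replicate 2 (2.13, 0.0475). *Coch*, which encodes a secreted matrix protein, was at 8.17, 27.80, 26.63 and 11.17 FPKM in Wnk1f/f and 3.23, 2.51, 2.98, 14.34 and 9.50 FPKM in Wnk1d/d uteri. It did not pass (log2 fold change -1.47, adjusted p = 0.0707), except without Wnk1d/d replicate 4 (-1.79, 0.0355). *Ptgs2*, the inducible enzyme of prostaglandin synthesis, was under the filter at 0.18, 0.19, 0.21 and 0.35 FPKM in Wnk1f/f and 0.78, 0.58, 0.95, 0.70 and 0.39 FPKM in Wnk1d/d uteri, and in the fit without a filter it had adjusted p = 0.0199.

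**Figure D4:**
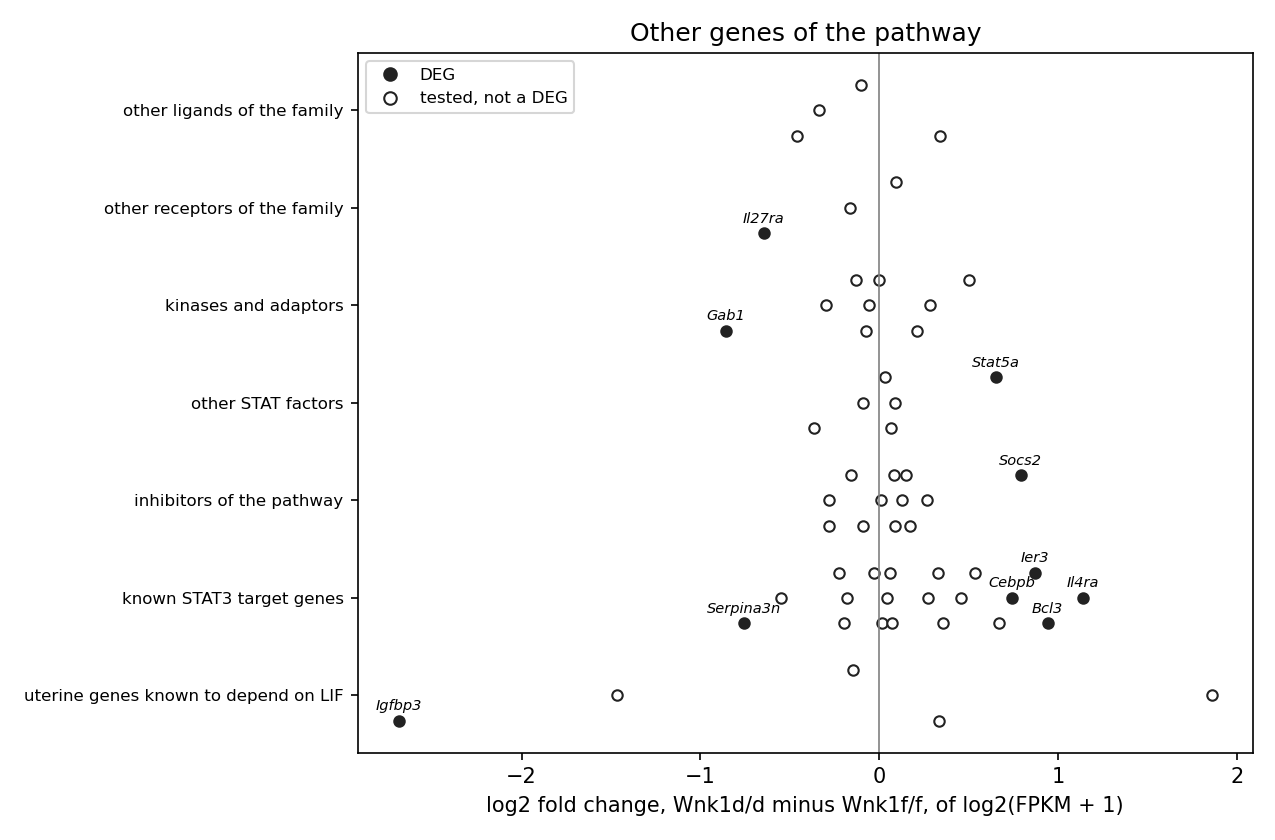
Log2 fold change of log2(FPKM + 1), Wnk1d/d minus Wnk1f/f, of the 59 tested genes of the 7 pathway lists, with filled points for DEGs. The 6 DEGs to the right reach 1.14 for *Il4ra*, the 4 to the left reach -2.69 for *Igfbp3*, and the other 49 genes are open points.

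Across the pathway lists there were DEGs in both directions. Among the 20 STAT3 target genes 4 DEGs were higher and 1 was lower in Wnk1d/d uteri, beside 5.09% and 5.18% of all genes tested. That list was chosen with earlier results of these data known. The same changes in smooth muscle, stromal, endothelial and gland markers stood beside all of these comparisons, and their part in the pathway genes was not tested.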

How the data were processed

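Whole-uterus RNA of 4 Wnk1f/f and 5 Wnk1d/d mice on PPD 4.5 was extracted with TRIzol and sequenced as 75-nucleotide paired ends. The authors kept reads with a mean quality above 20, aligned them to mm10 with TopHat2 2.0.4 and deposited FPKM per gene from Cufflinks 2.0.2, per the labels, with no replicates pooled. The gene annotation and the use of strand are not given in the sources used here. FPKM is scaled to length and library, so depth is unknown and no counting intervals are given.

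Values were used as deposited, as log2(FPKM + 1). The 14728 genes whose mean passed 1 FPKM in either genotype went into an unpaired limma fit with trend (limma 3.58.1, R 4.3.3), and p-values were adjusted by Benjamini-Hochberg over all of them. DEGs were called at an adjusted p below 0.05 with means that differed by 1.5 times or more, the study's own thresholds. Single values and ratios were compared by exact two-sided permutation over 126 splits (Python 3.11.15, SciPy 1.17.1). The limma step was tested on simulated data. The p-values measure the spread between mice. Coordinates come from GENCODE M21 (mm10), and promoters from RefSeq (GRCm38.p6).

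The members, the pathway and marker lists and the alternatives were chosen with earlier results of these data known. Named genes are the 10 members, every DEG of the pathway lists and, for their roles, *Jak1*, *Jak2*, *Tyk2*, *Il6ra*, *Cntfr*, *Clcf1*, *Socs1* and *Ptpn11*. *Grb2*, *Ptpn1*, *Pias1*, *Myc*, *Il11ra2*, *Irg1*, *Coch*, *Ptgs2* and single markers were named after their values were seen. A gene of these lists was taken out of them after the analysis and is not reported here. Alternatives changed the pseudocount (0.1), the filter (none, or 5 FPKM), the scaling (medians or quantiles), the trend (off), the fold criterion (none) and the libraries (each left out), or added a replicate block.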

Additional observations from a re-analysis of the deposited data

Results flagged for a closer look

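In 56 groups of 4 or 5 libraries (28 genes in both genotypes), the highest or lowest library was set against the others by Dixon's 95% criterion, which chance meets in about 1 of 20 groups, and 3 values met it. *Lif* was lowest in Wnk1d/d replicate 2 at 5.6 FPKM, while the other 4 mutants were at 7.92 to 8.86 FPKM, and without this library the log2 fold change of *Lif* was 1.36. *Igfbp3* was highest in Wnk1f/f replicate 1 at 1459 FPKM, with the other controls at 506 to 664 FPKM. *Tyk2* was highest in Wnk1d/d replicate 2 at 17.1 FPKM, with the other mutants at 13.2 to 13.9 FPKM.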

How the results depend on the processing

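*Lif* was a DEG in 15 of 16 alternatives. The exception was the fit with the replicate number as a block, where its log2 fold change was 1.22 with adjusted p = 0.0556. In that fit 0 members, 3 pathway genes in place of 10 and 218 genes in place of 1513 were DEGs. No Wnk1f/f library has the number 5, so Wnk1d/d replicate 5 added nothing to that estimate. The blocks also left fewer values to measure the spread, which makes the test weaker. Equal numbers belong to different mice, and the deviations of equally numbered libraries correlated at -0.268 to 0.022, so the numbers do not pair the libraries, and every Wnk1f/f library correlated best with a mutant of another number. With the adjusted p alone, 17 pathway genes passed. The members that were DEGs numbered 1 to 2 when each library was left out (2 without Wnk1f/f replicate 3, through *Osmr*). *Gab1*, *Il4ra* and *Ier3* were DEGs in all 16 alternatives, and *Cebpb* in 9. Directions turned only where values were near 0, in *Il6st* under quantile normalization (-0.00011) and in *Il6* without 1 library (-0.0927 to 0.0332, above 0 without Wnk1f/f replicate 3 at 0.0332 or Wnk1d/d replicate 2 at 0.00658). Among all recomputed values, 645 kept direction and side of the threshold, 58 lost the threshold, 6 gained it, 15 counts moved by over 1.5 times and 3 values reversed. Divided by each of the 11 epithelial and gland markers, a choice made after seeing the data, *Lif* was 1.19 to 21.3 times higher by the means, and the groups overlapped in 2 of the 11. The unknown depth limits what can be said of *Il6*, *Il11* and *Osm*.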

Other observations

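Among the controls, Wnk1f/f replicate 3 had the highest value of its genotype in 6 of the 10 members (*Lif*, *Il6st*, *Il6*, *Osm*, *Osmr* and *Stat3*) and the lowest in 0, and Wnk1f/f replicate 4 had the highest in 0 and the lowest in 4 (*Il6*, *Il11ra1*, *Stat3* and *Socs3*). Among the mutants, Wnk1d/d replicate 2 had the lowest value in 6 members (*Lif*, *Il6*, *Il11*, *Il11ra1*, *Osmr* and *Socs3*) and the highest in 2 (*Lifr* and *Il6st*), and Wnk1d/d replicate 4 had the highest in 4 (*Il11ra1*, *Osmr*, *Stat3* and *Socs3*). These counts were made after the values were seen and were not tested.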
